A study of Homo sapiens with 12 samples.

Results

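The 36 mRNAs described here encode proteins of the cell cycle and of DNA replication, among them MKI67, the mitotic cyclins, the mitotic kinases and the MCM helicase. They were taken as a fixed list of gene identifiers and are 36 of the 31707 genes with a value in the deposited tables. The study immunoprecipitated ADAR3, a double-stranded RNA-binding protein related to the RNA editing enzymes ADAR1 and ADAR2 but not known to edit, from U373-MG cells, a human glioblastoma line, and sequenced the RNA that came with it (RIP-seq). There were 12 libraries of this 1 line, grown without any further treatment: 4 of the ADAR3 immunoprecipitate (ADAR3 IP), 4 of an immunoprecipitate with pre-immune serum (pre-immune IP, the background control) and 4 of input RNA. All cells were crosslinked with ultraviolet light at 150 mJ/cm2 before lysis, and ADAR3 was the cells' own protein. The labels do not tie the replicates to separate cultures, and the p-values therefore cover only library-to-library spread, possibly technical. Which antibody the ADAR3 IP used is not given in the sources used here.

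The proteins of this list act in turn as a cell divides. In S phase the MCM complex unwinds DNA, PCNA holds the polymerases on it, and ribonucleotide reductase and thymidylate synthase supply deoxynucleotides. In G2 and M phase, cyclins with CDK1 and the Aurora and Polo kinases drive spindle assembly and chromosome segregation, and FOXM1 is a transcription factor of many of the G2 and M phase genes. Dividing tumour cells transcribe the list as a programme, in which E2F factors act on the S phase genes and complexes that bind the CHR element (TTTGAA) act on many G2 and M phase genes.

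The promoter sequences show what the list shares at the level of transcription. RefSeq promoters of GRCh38.p14, each 300 bases long from 250 bases before to 50 after a gene's start, were found for 30 of the 36 genes, 38 promoters in all. The letters TTTGAA, searched on both strands, were in 18 of the 38 promoters (47.4%), against 15.2% of all 35116 promoters. They were in promoters of 16 of 22 genes of the G2 and M phase class and of 1 of 8 of the S phase class, RRM1. CCAAT, which can share letters with TTTGAA, as it does in the MKI67 window, was in 29 of 38 promoters (76.3%) against 34.6% of all promoters. TTTCCCGC, a form of the E2F site, was in 4 of 38 (10.5%) against 1.63%, all of them S phase genes (MCM3, MCM7, PCNA and TYMS). The windows below are 30 bases long on the gene's strand with the matched letters in capitals, read as TTTGAA or its reverse complement in the G2 and M phase genes and as TTTCCCGC or its reverse complement in the S phase genes. They were chosen because the mRNAs of MKI67, PLK1, CCNB2 and TOP2A, which share the same element, had different levels in the ADAR3 IP, as described later. A match describes the letters in this window, and these libraries did not measure the binding of any factor to DNA.
MKI67, chr10:128126435-128126464, minus strand: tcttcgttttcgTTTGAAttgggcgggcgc
PLK1, chr16:23678848-23678877, plus strand: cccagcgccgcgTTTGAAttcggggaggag
CCNB2, chr15:59105105-59105134, plus strand: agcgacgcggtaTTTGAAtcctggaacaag
TOP2A, chr17:40418030-40418059, minus strand: ctgattggtttaTTCAAAcaaaccccggcc
PCNA, chr20:5126663-5126692, minus strand: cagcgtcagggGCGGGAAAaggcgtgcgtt
TYMS, chr18:657603-657632, plus strand: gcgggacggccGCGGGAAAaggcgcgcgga
In MKI67, PLK1 and CCNB2 the element began 29 bases before the gene's start.

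Levels are given as CPM, counts scaled to a common library total, from reads recovered from the deposited normalised counts. The ADAR3 IP libraries held 23999234 to 30156884 reads, the input libraries 4873428 to 12772412 and the pre-immune IP libraries 1875461 to 4946149, so that the background control was the shallowest group. The fewest reads of any tested member in a library were 434 in the ADAR3 IP, 258 in the input and 28 in the pre-immune IP. Across the 34 members with enough reads to be tested, the median SD of log2 CPM among the 4 libraries was 0.18 in the ADAR3 IP, 0.41 in the pre-immune IP and 0.087 in the input. In 6238 genes of like level these were 0.16, 0.54 and 0.086. Differences between the pre-immune IP and either other group therefore carried the larger errors.

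Most of the list was lower in the ADAR3 IP than in input RNA, and 3 members were higher. Of the 34 members tested, 29 were lower and 3 higher (MKI67, FOXM1 and RRM2), with BUB1B and MCM4 past the threshold in neither direction (limma on log2(CPM + 1), Benjamini-Hochberg adjusted p under 0.05 over the 11272 genes tested). Over all genes tested 36.1% were lower and 32.6% higher in the same comparison. The median log2 fold change of the members was -0.59, against -0.04 over all genes tested. The ADAR3 IP libraries lay wholly below the input libraries for 28 members and wholly above for 3, against 32.7% and 28.7% of genes. In each of the 4 ADAR3 IP libraries, 31 of the 34 members lay below their mean input level. In pre-immune replicates 1 to 4 the counts were 29, 31, 27 and 28 of 34. These counts per library were made for the members alone, without a share over all genes. Fold changes against input were below 0 for 31 members in the ADAR3 IP, against 52.0% of genes. For the pre-immune IP this held for 32 members, against 67.9% of genes. The deposited tables of immunoprecipitates and of input were normalised separately, so these comparisons rest on recovered reads, in which the tables' scaling does not enter. Input is RNA of a bulk culture, in which fewer cells of a phase and less of an mRNA per cell cannot be told apart. The level in an immunoprecipitate is that of the RNA recovered in it. The protocol describes ribosomal RNA depletion for all libraries, while the molecule label reads polyA RNA.

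Against the pre-immune IP, MKI67 was the single member to pass the test, and it was higher in the ADAR3 IP. Of the 34 members tested, 1 was higher and 0 were lower by limma on log2(deposited value + 1), against 2.33% and 1.74% of the 11112 genes tested. At an unadjusted p under 0.05, 2 were higher and 7 lower, against 10.2% and 7.33% of genes. On recovered reads edgeR gave 1 higher and 0 lower member, against 2.69% and 1.75% of genes. DESeq2, which covered all 36 members, gave 1 higher and 6 lower, against 8.75% and 5.63%. In the deposited values, every ADAR3 IP library lay below every pre-immune library for 5 members (CCNB1, CCNB2, TYMS, BIRC5 and ANLN), against 6.68% of genes. In CPM the groups overlapped for ANLN, with 156 CPM in ADAR3 IP replicate 3 and 151 CPM in pre-immune replicate 2. The median of the members was -0.30 where that of all genes tested was 0.25, and 26 of 34 members had a fold change below 0, as did 37.05% of all genes. The distance between these medians depended on the tool: they were -0.30 and -0.00063 with edgeR and -0.32 and 0.05 with DESeq2. With TMM factors in limma they were -0.16 and 0.39, 25 members lay below 0, and the share of higher genes among all calls went from 57.3% to 77.7%. Leaving out a pre-immune library gave up to 2 lower members. These were PLK1 and TOP2A without replicate 1, where 2.06% of genes were lower, and PCNA without replicate 4, where 3.1% were.

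The background control itself differed from input for part of the list. In the pre-immune IP, 6 of 34 members were lower than in input (CCNB1, MCM7, TYMS, TPX2, MCM5 and CDC20) and 0 were higher by limma on log2(CPM + 1), against 5.52% and 1.43% of the 11232 genes tested. At an unadjusted p under 0.05, 19 members were lower and 0 higher, against 18.1% and 5.73% of genes. On recovered reads edgeR and DESeq2 each gave 0 higher and 6 lower, against 2.42% and 3.52% of genes by edgeR and 6.37% and 6.33% by DESeq2. The pre-immune libraries lay wholly below the input libraries for 14 members and wholly above for 0, against 16.9% and 5.86% of genes. The median of the members was -0.44 and that of all genes -0.34, and with edgeR they were -0.32 and 0.03. The share of higher genes among all calls was 20.6%, and 40.8% with edgeR. Without pre-immune replicate 3, 13 members were lower, and so were 9.84% of genes. The 3 comparisons share their libraries in pairs, so their values stand side by side and are not independent.

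**Figure D1:**
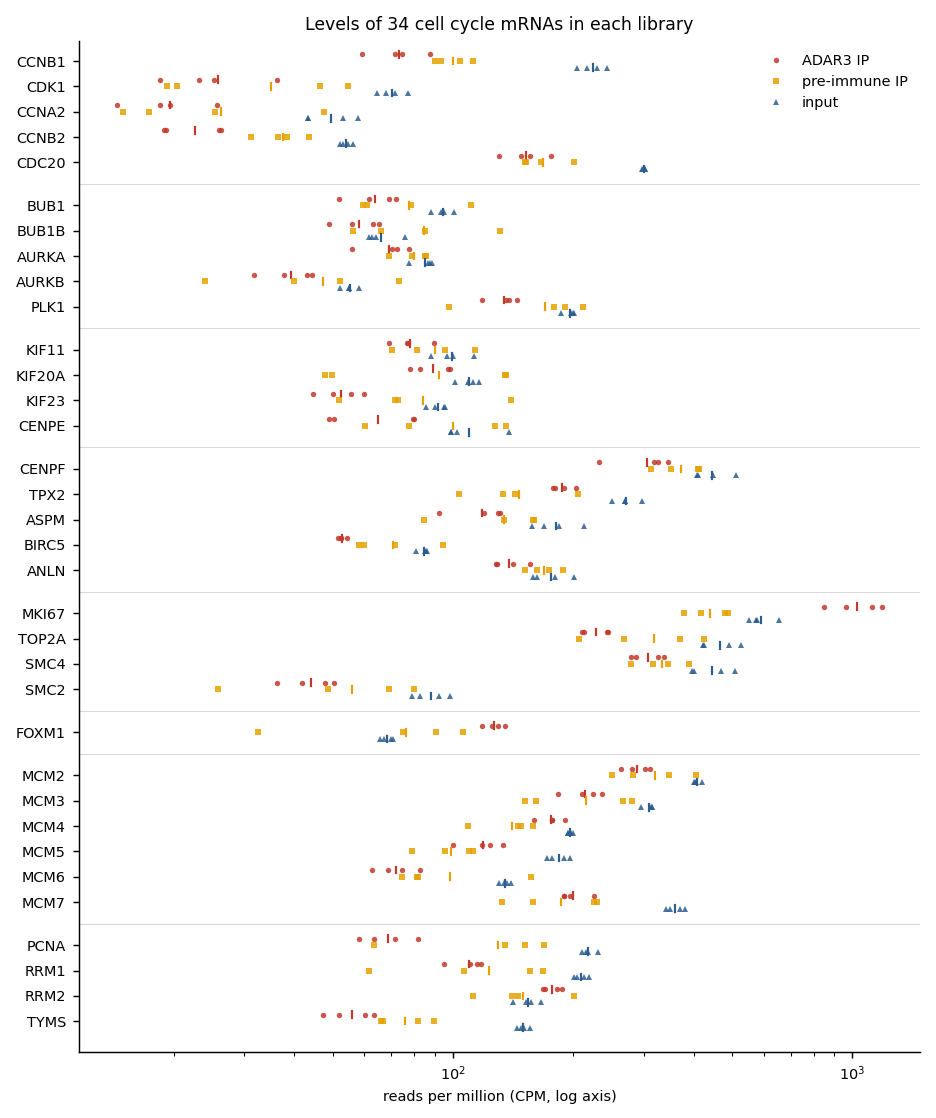
Level of each of 34 cell cycle mRNAs in CPM (log axis), with 1 point per library (4 ADAR3 IP, 4 pre-immune IP, 4 input) and a short vertical line at each group's mean, in blocks by role. Input points lie to the right of the ADAR3 IP points for most genes, while MKI67 and FOXM1 have all 4 ADAR3 IP libraries above the 8 others.

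By mean level, 26 of 34 members followed the order ADAR3 IP below pre-immune IP below input, an order found in 21.0% of the 11112 genes. MCM4, MCM5, MCM7 and TPX2 had their lowest mean in the pre-immune IP and their highest in input, as 16.2% of genes did. MKI67 and FOXM1 were the 2 members with every ADAR3 IP library above all 8 others, as in 7.76% of genes. MKI67, FOXM1 and RRM2 had their highest mean in the ADAR3 IP, as 35.1% of genes did. BUB1B alone had its highest mean in the pre-immune IP (27.8% of genes). In CCNB1, CCNB2 and TYMS the 3 groups did not overlap in this order, which held for 1.6% of genes.

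MKI67 encodes Ki-67, the coat protein of mitotic chromosomes that is the standard marker of proliferating cells. The gene (ENSG00000148773) lies on chromosome 10 from 128096659 to 128126423 of GRCh38.p14 and overlaps no other RefSeq gene. In replicates 1 to 4, the ADAR3 IP held 847, 1187, 1121 and 963 CPM, the pre-immune IP 487, 417, 479.6 and 379 CPM, and the input 656, 552, 577 and 572 CPM. Every ADAR3 IP library lay above all 8 others, and the pre-immune libraries all lay below the input. The means were 1029 ± 154, 440.5 ± 52.0 and 589 ± 45.7 CPM (SD, n = 4 each). MKI67 was 2.20-fold higher in the ADAR3 IP than in the pre-immune IP (log2 1.14 ± 0.14, SE, limma, adjusted p = 0.001003), and the adjusted p ran from 1.24e-12 to 0.0443 over the alternatives. Against input the log2 fold change was 0.79 ± 0.10 (limma, adjusted p = 2.01e-06). The pre-immune IP against input gave -0.42 ± 0.12 (limma, adjusted p = 0.0570), which did not pass. It passed in 6 of 21 alternatives, among them those without pre-immune replicate 1 (0.0369) and without pre-immune replicate 3 (0.0370). Among all genes tested, 21.0% had a larger fold change than MKI67 over the pre-immune IP and 10.9% a larger one over input.

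FOXM1 encodes the forkhead transcription factor of G2 and M phase genes. Its gene (ENSG00000111206; chromosome 12, 2857680 to 2877174) overlaps the protein-coding genes ITFG2 and RHNO1, and reads of overlapping genes cannot be told apart where the strand setting of the counting is not given. The ADAR3 IP held 118, 125, 129 and 135 CPM, the pre-immune IP 90.8, 106, 74.9 and 32.5 CPM, and the input 70.0, 65.8, 70.6 and 67.1 CPM. Every ADAR3 IP library lay above all 8 others, and the pre-immune libraries spread on both sides of the input. FOXM1 was 1.84-fold higher in the ADAR3 IP than in input (log2 0.88 ± 0.08, limma, adjusted p = 4.92e-08), and 8.48% of tested genes had a larger value. Over the pre-immune IP the log2 fold change was 0.78 ± 0.32 (limma, adjusted p = 0.228), which did not pass. In the deposited values, MKI67 and FOXM1 were the 2 of 34 members with every ADAR3 IP library above every pre-immune library, a pattern of 8.80% of genes tested. In CPM this also held for MCM4, by a narrow margin (lowest ADAR3 IP library 159.2 CPM, highest pre-immune library 158.7 CPM).

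RRM2 and RRM1 encode the small and the large subunit of ribonucleotide reductase, which makes deoxynucleotides. RRM2 (ENSG00000171848; chromosome 2, 10122568 to 10211010) had 188, 169.5, 168 and 182 CPM in the ADAR3 IP, 140.1, 112, 201 and 145 CPM in the pre-immune IP and 156, 152, 166 and 141 CPM in input. All 4 ADAR3 IP libraries lay above the input, by a small margin, and the pre-immune libraries lay on both sides of each. The log2 fold change over input was 0.20 ± 0.07 (limma, adjusted p = 0.0253), and the call was lost without a variance trend (0.0611), without a filter on low values (0.0516), and without ADAR3 IP replicate 1 (0.0652), input replicate 2 (0.0622) or input replicate 4 (0.100). RRM1 had 110.2, 94.8, 115 and 117 CPM in the ADAR3 IP and 218, 205, 213 and 201 CPM in input, with no overlap. RRM1 was lower in the ADAR3 IP, with a log2 fold change of -0.94 ± 0.08 (limma, adjusted p = 3.32e-08). Within a library, RRM2 reads per RRM1 read were 1.63 ± 0.146 in the ADAR3 IP, 1.55 ± 1.18 in the pre-immune IP and 0.735 ± 0.0326 in input (SD, n = 4 each), a ratio chosen after the values were seen and not tested.

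PCNA and TYMS, the other members of this role, were among the lowest relative to input. PCNA, the sliding clamp of the replicative polymerases (ENSG00000132646; chromosome 20, 5114953 to 5126622), had 58.0, 71.5, 81.5 and 63.2 CPM in the ADAR3 IP, 135, 169, 151 and 63.5 CPM in the pre-immune IP, and 218, 215, 230 and 210 CPM in input. The ADAR3 IP and input did not overlap, and pre-immune replicate 4 lay within the ADAR3 IP range while the other 3 lay between the groups. PCNA was 3.17-fold lower in the ADAR3 IP than in input (log2 -1.67 ± 0.10, limma, adjusted p = 3.43e-10), the largest difference among the 34 members. Against the pre-immune IP it was -0.92 ± 0.29 (limma, adjusted p = 0.110), and without pre-immune replicate 4 it was -1.22 (adjusted p = 0.00532). TYMS, thymidylate synthase, had 47.3, 51.7, 63.5 and 60.1 CPM in the ADAR3 IP, 81.9, 89.4, 65.8 and 66.7 CPM in the pre-immune IP, and 144, 148, 156 and 151 CPM in input, with no overlap between any of the groups. TYMS was lower than in input both in the ADAR3 IP (log2 -1.42 ± 0.09, limma, adjusted p = 1.86e-09) and in the pre-immune IP (log2 -0.98 ± 0.16, limma, adjusted p = 0.00551; 0.0556 by edgeR with the replicate number as a block). Of the 4 genes of the clamp and deoxynucleotide supply, 3 were lower and 1 higher in the ADAR3 IP than in input, with a median of -1.18.

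Cyclins, CDK1 and CDC20, which drive entry into and exit from mitosis, were all lower in the ADAR3 IP than in input (5 of 5, median log2 fold change -1.31, range -1.61 to -0.98). CCNB1, cyclin B1 (ENSG00000134057; chromosome 5, 69167150 to 69178245), had 74.6, 59.1, 87.6 and 71.7 CPM in the ADAR3 IP, 112, 104, 93.4 and 90.1 CPM in the pre-immune IP, and 229, 205, 243 and 217 CPM in input. Its 3 groups were fully separate, with the pre-immune IP in between. CCNB1 was 3.04-fold lower in the ADAR3 IP than in input (log2 -1.61 ± 0.10, limma, adjusted p = 1.23e-09) and 2.23-fold lower in the pre-immune IP (log2 -1.16 ± 0.14, limma, adjusted p = 0.000865). The ADAR3 IP against the pre-immune IP gave -0.54 ± 0.19 (limma, adjusted p = 0.171).

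CCNB2, cyclin B2, had 26.2, 25.9, 19.1 and 18.9 CPM in the ADAR3 IP, 43.7, 31.1, 36.4 and 38.4 CPM in the pre-immune IP, and 54.5, 56.2, 52.9 and 52.0 CPM in input. It was lower in the ADAR3 IP than in input (log2 -1.24 ± 0.12, limma, adjusted p = 2.17e-07) and gave -0.82 ± 0.35 against the pre-immune IP (limma, adjusted p = 0.254). CDK1, the kinase that the mitotic cyclins activate, had 23.2, 18.5, 36.3 and 25.3 CPM in the ADAR3 IP, 46.3, 20.4, 54.4 and 19.2 CPM in the pre-immune IP, and 77.2, 64.4, 71.6 and 68.1 CPM in input. Both immunoprecipitates lay wholly below the input for CDK1 and overlapped each other. CDK1 was lower in the ADAR3 IP (log2 -1.45 ± 0.15, limma, adjusted p = 4.13e-07), while the pre-immune IP, at -1.13 ± 0.36, did not pass (limma, adjusted p = 0.0895; 0.0300 without pre-immune replicate 3). CDC20, the activator of the anaphase-promoting complex, had 299, 302, 302 and 298 CPM in input against 156, 130.1, 148 and 176 CPM in the ADAR3 IP and 201, 151, 166 and 152 CPM in the pre-immune IP. CDC20 passed in both immunoprecipitates against input, at -0.98 ± 0.08 in the ADAR3 IP (limma, adjusted p = 3.45e-08) and -0.84 ± 0.13 in the pre-immune IP (limma, adjusted p = 0.00366; 0.0522 without a variance trend). CCNA2, cyclin A2, whose gene overlaps another protein-coding gene, had 25.6, 14.4, 18.5 and 19.5 CPM in the ADAR3 IP, 25.3, 47.6, 17.3 and 14.9 CPM in the pre-immune IP and 53.1, 43.3, 57.9 and 43.3 CPM in input. The ADAR3 IP lay below the input, and pre-immune replicate 2 stood within the input range while the other 3 lay within the ADAR3 IP range. CCNA2 was lower in the ADAR3 IP than in input (log2 -1.31 ± 0.15, limma, adjusted p = 1.42e-06), and the pre-immune IP, at -1.02 ± 0.39, did not pass (limma, adjusted p = 0.143; 0.0223 without pre-immune replicate 2).

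**Figure D2:**
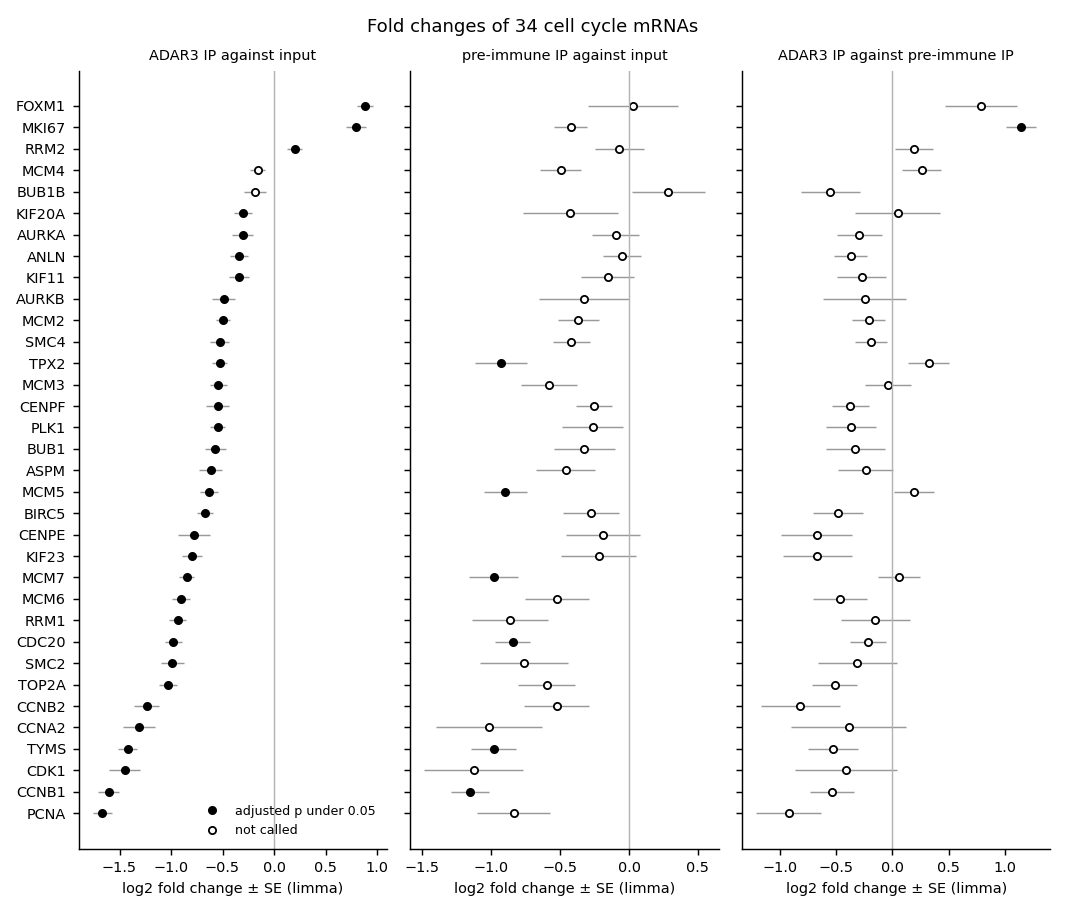
Log2 fold change ± SE of each of 34 members in the 3 comparisons (limma), ordered by the value of the ADAR3 IP against input, with filled points where the adjusted p was under 0.05. In the left panel 29 filled points lie below 0 and 3 above it, in the middle panel 6 lie below 0, and in the right panel MKI67 is the only filled point.

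Kinases and spindle checkpoint proteins were closer to input than the cyclins. Of these 5, AURKA, AURKB, PLK1 and BUB1 were lower in the ADAR3 IP than in input, with a median over the role of -0.49. PLK1, the Polo-like kinase of mitosis, had 144, 118, 138 and 136 CPM in the ADAR3 IP, 97.4, 179, 212 and 191 CPM in the pre-immune IP, and 198, 199.8, 200.3 and 186 CPM in input. The ADAR3 IP lay wholly below the input, and the pre-immune libraries lay both below the ADAR3 IP and above the input. Its log2 fold change against input was -0.55 ± 0.08 (limma, adjusted p = 9.66e-06). Against the pre-immune IP it was -0.37 ± 0.22 (limma, adjusted p = 0.414), which did not pass. PLK1 passed there in 1 of 21 alternatives, without pre-immune replicate 1, at -0.61 (limma, adjusted p = 0.0340). BUB1B, the checkpoint kinase-like protein BubR1, had 65.2, 49.0, 55.7 and 63.1 CPM in the ADAR3 IP, 85.1, 56.1, 131 and 66.1 CPM in the pre-immune IP, and 75.9, 62.7, 61.6 and 64.0 CPM in input. These ranges overlapped, and BUB1B did not pass against input, at -0.18 ± 0.11 (limma, adjusted p = 0.137), nor did the pre-immune IP, at 0.28 ± 0.26 (limma, adjusted p = 0.542). AURKA and AURKB encode the Aurora kinases of the spindle pole and of the chromosomal passenger complex. AURKA had 72.2, 70.3, 77.7 and 55.8 CPM in the ADAR3 IP, 79.1, 69.0, 85.2 and 85.3 CPM in the pre-immune IP and 87.5, 86.7, 88.4 and 77.4 CPM in input, where replicate 4 was the lowest. The ADAR3 IP and input met at their edges, and AURKA was lower with a log2 value of -0.31 ± 0.10 (limma, adjusted p = 0.0136), a call lost without a filter on low values (0.0550). AURKB was lower with a log2 value of -0.49 ± 0.11 (limma, adjusted p = 0.000975), with 31.7 to 44.4 CPM in the ADAR3 IP and 52.2 to 58.3 CPM in input, and its pre-immune libraries ran from 24.0 to 73.0 CPM across both. BUB1, a kinase of the same checkpoint as BUB1B, was lower with a log2 value of -0.57 ± 0.10 (limma, adjusted p = 0.000114), with 51.8 to 71.8 CPM in the ADAR3 IP and 88.0 to 100.7 CPM in input. All 5 members of the role had fold changes below 0 against the pre-immune IP (median -0.33), and 0 of 5 passed. Without pre-immune replicate 4 the log2 fold change of AURKB there went from -0.25 to 0.016, a change of sign, and it did not pass.

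The kinesin motors KIF11, KIF20A, KIF23 and CENPE, which build and move along the spindle, were lower in the ADAR3 IP than in input in 4 of 4 cases, with a median of -0.56. CENPE, the centromere-bound motor, had 50.4, 79.6, 80.0 and 48.8 CPM in the ADAR3 IP, 128, 60.1, 77.7 and 135 CPM in the pre-immune IP and 138, 102.3, 98.7 and 99.0 CPM in input. Its ADAR3 IP libraries lay below every input library and formed a lower and a higher pair. CENPE gave -0.78 ± 0.16 against input (limma, adjusted p = 0.000377) and -0.67 ± 0.31 against the pre-immune IP (limma, adjusted p = 0.295). KIF23, a motor of the central spindle, had 60.0, 49.9, 55.7 and 44.6 CPM in the ADAR3 IP, 51.8, 72.6, 71.5 and 139.7 CPM in the pre-immune IP and 95.4, 90.1, 95 and 85.4 CPM in input. The ADAR3 IP and input did not overlap, and the pre-immune libraries reached from within the ADAR3 IP range to above the input. KIF23 was lower than in input with a log2 value of -0.80 ± 0.10 (limma, adjusted p = 2.33e-06). KIF11, which pushes the spindle poles apart, was lower with a log2 value of -0.34 ± 0.10 (limma, adjusted p = 0.00491), and its ADAR3 IP range of 68.9 to 89.6 CPM met the lowest input library, at 88.3 CPM. KIF20A had the smallest difference of the motors, at -0.30 ± 0.09 (limma, adjusted p = 0.00782).

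Among proteins of the spindle, the centromere and cytokinesis, 5 of the 5 tested were lower in the ADAR3 IP than in input (median -0.55). TPX2, the spindle assembly factor that activates Aurora A, had 178, 190, 204 and 179 CPM in the ADAR3 IP, 133, 143, 205 and 103 CPM in the pre-immune IP and 297, 269.7, 269 and 250.2 CPM in input. TPX2 was lower than in input in the ADAR3 IP (log2 -0.53 ± 0.07, limma, adjusted p = 1.06e-05) and in the pre-immune IP (log2 -0.93 ± 0.19, limma, adjusted p = 0.0167). The latter call was lost with any input library left out (adjusted p from 0.0514 to 0.0637). It was also lost with a variance weight per group (0.0567) and without a variance trend (0.0833). BIRC5, or survivin, had 52.3, 51.4, 52.5 and 54.3 CPM in the ADAR3 IP, the smallest spread of any member in that group, against 58.2, 59.7, 94.3 and 71.4 CPM in the pre-immune IP and 80.6, 86.1, 85.6 and 85.2 CPM in input. In CPM the ADAR3 IP lay below all 8 other libraries, as it also did for CCNB1, CCNB2 and TYMS, 4 of 34 members against 3.97% of genes. BIRC5 was lower than in input, at -0.67 ± 0.08 (limma, adjusted p = 1.61e-06). CENPF, a kinetochore protein, had 232, 319, 346 and 326 CPM in the ADAR3 IP, 411, 413, 312 and 351 CPM in the pre-immune IP and 511, 410.4, 448 and 407 CPM in input. All ADAR3 IP libraries lay below the input, with replicate 1 the lowest, and the log2 fold change was -0.55 ± 0.11 (limma, adjusted p = 0.000340). ASPM, a spindle pole protein, was lower with a log2 value of -0.62 ± 0.11 (limma, adjusted p = 0.000149), with 92.2 to 131 CPM in the ADAR3 IP and 157 to 213 CPM in input. ANLN, the cytokinetic scaffold anillin, had a smaller difference of -0.34 ± 0.09 (limma, adjusted p = 0.00326).

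The other spindle genes, NUSAP1 and PRC1, lay under the minimum level of the tests. NUSAP1, a microtubule-binding spindle protein, had 0, 58, 0 and 14 reads in the ADAR3 IP, 0 in all 4 pre-immune libraries and 14, 12, 7 and 17 in input. The 0 reads in the pooled pre-immune libraries allow up to 0.214 CPM, counting error only, and the input mean was 1.37 CPM. PRC1, the microtubule bundler of the central spindle, had 175, 97, 106 and 124 reads in the ADAR3 IP, 45, 0, 0 and 0 in the pre-immune IP and 33, 28, 18 and 27 in input. Reads for PRC1 in the pre-immune IP came from replicate 1 alone. In the authors' deposited table, which tested both, the adjusted p was 0.593 for NUSAP1 and 0.824 for PRC1.

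Of the genes of chromosome structure besides MKI67, TOP2A, SMC4 and SMC2 were lower in the ADAR3 IP than in input. TOP2A, the topoisomerase that untangles sister chromatids (ENSG00000131747; chromosome 17, 40388525 to 40417896), had 211, 244, 243 and 212 CPM in the ADAR3 IP, 207, 269, 426 and 370.0 CPM in the pre-immune IP and 525, 424, 490.0 and 423 CPM in input. The ADAR3 IP and input were far apart, and the pre-immune libraries ran from the ADAR3 IP level up to the input level. TOP2A was 2.04-fold lower than in input (log2 -1.03 ± 0.08, limma, adjusted p = 2.43e-08). Against the pre-immune IP it gave -0.51 ± 0.20 (limma, adjusted p = 0.202), and -0.69 (adjusted p = 0.0400) without pre-immune replicate 1. The condensin subunits SMC4 and SMC2 gave -0.53 ± 0.09 and -0.99 ± 0.11 against input (limma, adjusted p = 8.09e-05 and 8.09e-07). MKI67 reads per TOP2A read within a library were 4.51 ± 0.354 in the ADAR3 IP, 1.51 ± 0.605 in the pre-immune IP and 1.27 ± 0.0752 in input (SD, n = 4 each), a ratio chosen after the values were seen and not tested.

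The 6 subunits of the MCM helicase, which form a single ring, did not have equal fold changes. Relative to input, 5 of 6 were lower in the ADAR3 IP with a median of -0.59, from -0.90 ± 0.09 in MCM6 (limma, adjusted p = 1.63e-07) to -0.16 ± 0.07 in MCM4, which did not pass (limma, adjusted p = 0.0586; 0.0287 without ADAR3 IP replicate 3). MCM7 (ENSG00000166508; chromosome 7, 100092728 to 100101397), whose gene overlaps another protein-coding gene, had 189, 197, 189 and 225 CPM in the ADAR3 IP, 132, 159, 225 and 229.8 CPM in the pre-immune IP and 342, 381, 349 and 369 CPM in input. Both immunoprecipitates lay below the input and overlapped each other. MCM7 was lower than in input in the ADAR3 IP (log2 -0.85 ± 0.07, limma, adjusted p = 5.03e-08) and in the pre-immune IP (log2 -0.98 ± 0.18, limma, adjusted p = 0.00917; 0.0679 without a variance trend).

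MCM4 had 159, 177, 191 and 177 CPM in the ADAR3 IP, 159, 148, 109 and 146 CPM in the pre-immune IP and 200.04, 193, 198 and 194 CPM in input. The input lay above both other groups, and the ADAR3 IP lay close under it. MCM2 and MCM3 had like differences from input. MCM2 had 280.1, 263, 302 and 311 CPM in the ADAR3 IP, 250.1, 347, 405 and 282 CPM in the pre-immune IP and 404, 419, 402 and 405 CPM in input, and was lower with a log2 value of -0.50 ± 0.07 (limma, adjusted p = 9.65e-06). MCM3 was lower with a log2 value of -0.54 ± 0.08 (limma, adjusted p = 1.56e-05), with 184 to 236 CPM in the ADAR3 IP and 295 to 315 CPM in input. In MCM6 the ADAR3 IP held 62.8 to 82.6 CPM and the input 130.1 to 139.9 CPM, while pre-immune replicate 3, at 157 CPM, lay above the input and the other 3 pre-immune libraries lay at 74.4 to 81.6 CPM. MCM5 was lower than in input in both immunoprecipitates, at -0.63 ± 0.09 in the ADAR3 IP (limma, adjusted p = 9.95e-06) and -0.90 ± 0.16 in the pre-immune IP (limma, adjusted p = 0.00703). The latter call was lost with a variance weight per group (0.0633), without a variance trend (0.0524) and by edgeR with the replicate number as a block (0.0516). Against the pre-immune IP the median over the helicase was 0.0060 on the log2 scale, with 3 subunits above 0 and 3 below, and 0 of 6 passed. Of these, MCM3 changed sign in 6 of 21 alternatives and MCM7 in 2. The cyclin role had 5 of 5 members below 0 in that comparison, with a median of -0.41, and 0 of 5 passed.

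**Figure D3:**
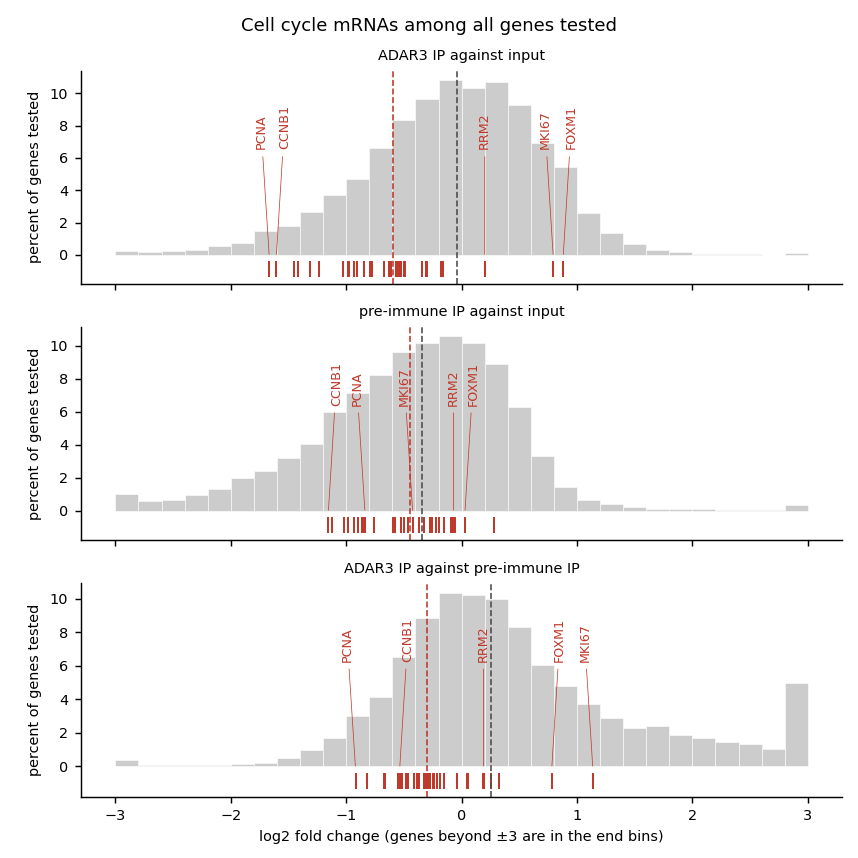
Distribution of log2 fold changes over all genes tested in each comparison (grey bars, percent of genes, with values beyond 3 in the end bins), the 34 members as red ticks, and dashed lines at the median of the members (red) and of all genes (dark). Against input the median of the members lies at -0.59 for the ADAR3 IP and -0.44 for the pre-immune IP, and MKI67 and FOXM1 lie on the higher side in the top and bottom panels.

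Summed over all 36 members, the list took 0.496 ± 0.0282% of the reads of the ADAR3 IP libraries, 0.485 ± 0.0216% in the pre-immune IP and 0.674 ± 0.0308% in input (SD, n = 4 each). Without the 10 most abundant genes of each library the order of the immunoprecipitates turned, with 0.563% in the ADAR3 IP and 0.610% in the pre-immune IP. Without MKI67 the shares were 0.394%, 0.441% and 0.615%. MKI67 made up 20.7 ± 2.21% of the members' reads in the ADAR3 IP, 9.08 ± 0.923% in the pre-immune IP and 8.73 ± 0.366% in input. The cyclins, CDK1 and CDC20 made up 5.93 ± 0.755%, 7.56 ± 1.00% and 10.3 ± 0.286%. These shares are parts of a whole, so a larger share of MKI67 leaves smaller ones for the rest, and they depend on gene length as well as on the amount of mRNA.

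**Figure D4:**
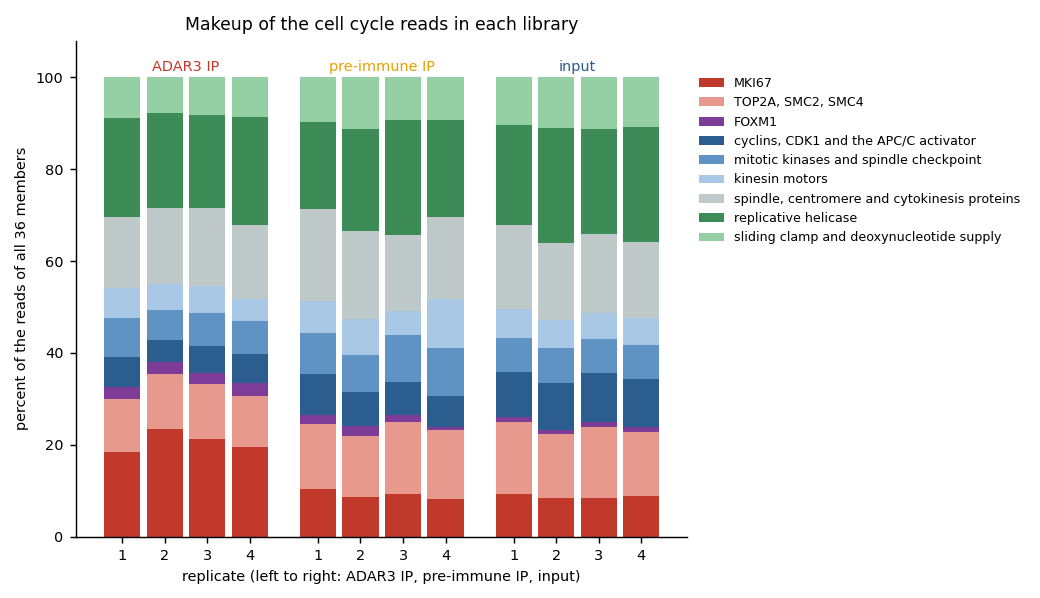
Percent of the reads of all 36 members that fell to MKI67, to FOXM1 and to each role, 1 bar per library, for 4 ADAR3 IP, 4 pre-immune IP and 4 input libraries. MKI67 takes about 20.7% in the ADAR3 IP bars and 9.08% and 8.73% in the pre-immune IP and input bars, on average.

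Across the 34 members, the log2 level in an ADAR3 IP library followed the mean input level with a correlation of 0.856 to 0.886, and that in a pre-immune library with 0.832 to 0.885. These are descriptions over genes that share a library and differ in length. In the authors' deposited table of the ADAR3 IP against the pre-immune IP, MKI67 was higher (log2 1.14) and 6 of the 36 members were lower: PCNA (-0.998), CCNB2 (-0.81), CCNB1 (-0.54), TYMS (-0.54), BIRC5 (-0.50) and ANLN (-0.37). DESeq2 on recovered reads gave the same log2 fold changes as the authors' deposited table for 36 of 36 members within 0.001, so the pair counts as 1 result. Of all genes with an adjusted p in the authors' deposited table, 8.75% were higher and 5.63% lower. Of the 36 genes, 20 overlap another RefSeq gene and 8 overlap a protein-coding one (BUB1B, PLK1, CCNA2, KIF20A, MCM7, TYMS, FOXM1 and ANLN), so that their levels may include reads of a neighbour.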

How the data were processed

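RIP-seq libraries were made with ribosomal RNA depletion, a strand-specific kit and 15 PCR cycles, from 1 µg of total RNA for input and all recovered RNA for the immunoprecipitates, per the labels' protocols. Per the submitters' processing notes, the tools were STAR 2.7.7a, featureCounts and DESeq2 and the build was GRCh38. The authors deposited normalised counts, a signal in which 1 read is worth a fixed amount per library: whole reads were recovered for 100% of values within 0.001 reads. No 2 replicates agreed within sampling noise. The authors' deposited log2 fold changes and adjusted p-values come from their own comparison.

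Tests used limma 3.58.1 with a variance trend in R 4.3.3 and an adjusted p under 0.05. The ADAR3 and pre-immune IPs were compared as log2(deposited value + 1) for genes with a mean of at least 50, and comparisons with input as log2(CPM + 1), mean at least 5 CPM. That minimum was to be the lowest without false calls in simulated libraries. None met this for the ADAR3 IP against input, where 5 was kept and 20 CPM added as an alternative. All members are accounted for; values in every library are given for members called against the pre-immune IP, the 3 largest differences in each direction per comparison, the best known gene of each role, and others chosen after their values were seen. edgeR 4.0.16 and DESeq2 1.42.0 on recovered reads were among the alternatives. The members and lists were chosen with earlier results of these data known. Member symbols come with the list. Other pathway genes, cell type markers and protein sequences were not analysed here.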

Additional observations from a re-analysis of the deposited data

Results flagged for a closer look

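In 6 of 111 sets of 4 libraries, 1 library stood apart from the other 3 (Dixon's criterion), a gap that chance gives in about 1 of 20 sets. BUB1B had 75.9 CPM in input replicate 1 against 61.6 to 64.0 CPM in the other input libraries, and without that library its values in the ADAR3 IP and the input still overlapped. CENPE had 138 CPM in input replicate 1 against 98.7 to 102.3 CPM. MCM3 had 295 CPM in input replicate 1 against 313 to 315 CPM. AURKA had 77.4 CPM in input replicate 4 against 86.7 to 88.4 CPM. MCM6 had 157 CPM in pre-immune replicate 3 against 74.4 to 81.6 CPM, and without that library it was lower in the pre-immune IP than in input (limma, adjusted p = 0.00668) where the 4 libraries gave 0.197. PRC1 had 9.10 CPM in pre-immune replicate 1 and was listed at 0 in the other 3.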

How the results depend on the processing

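In the ADAR3 IP against input the counts were steady, although no minimum there was free of false calls in simulated libraries. With any library left out, 29 to 30 members were lower (33.3 to 36.5% of genes) and 2 to 3 higher (29.4 to 32.8%). At a minimum of 100 CPM, 18 of the 20 members tested were lower (37.1% of genes). Against the pre-immune IP, MKI67 was the 1 higher member in all 21 alternatives, in which 0.666 to 8.75% of genes were higher. The count of lower members was 6 with DESeq2 (5.63% of genes) and 0 to 2 with a library left out (0.585 to 3.1%). In the pre-immune IP against input, the count of lower members was 2 without a variance trend (2.3% of all genes tested). It was 13 of 22 tested at a minimum of 100 CPM (27.9%) and 5 to 13 with a library left out (2.06 to 9.84%). With the replicate number as a block (the replicate block), that count was 10 in limma (7.26% of genes) and 4 in edgeR (2.62%). In limma with this block, the ADAR3 IP against the pre-immune IP gave 1 higher and 0 lower members (2.37% and 1.26% of genes). Against input the ADAR3 IP gave 3 higher and 29 lower members (33.2% and 36.7%). Correlations between same-numbered libraries ran from -0.0991 to 0.316, the highest in ADAR3 IP replicate 4 against input. Against input, ADAR3 IP replicates 1, 3 and 4 and pre-immune replicates 1, 2 and 4 correlated best with the input library of their own number. Against the pre-immune IP, only ADAR3 IP replicate 1 did so. Whether the replicate numbers pair the libraries was not tested. Without the 10 most abundant genes the list took 0.563% of ADAR3 IP reads, 0.610% of pre-immune IP reads and 0.746% of input reads.

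Over all genes, counts over the alternatives ran from 74 to 1571 higher and 55 to 1010 lower for the ADAR3 IP against the pre-immune IP, from 1040 to 4282 and 829 to 4415 against input, and from 28 to 1029 and 231 to 3888 for the pre-immune IP against input. In the ADAR3 IP against the pre-immune IP, library totals put the share of higher genes among all calls at 69.4%. Signs of values that were not called also turned. MCM7 (0.05 in that comparison) ran from -0.092 to 0.18 with a library left out, below 0 without ADAR3 IP replicate 4 (-0.0041) and pre-immune replicate 1. In the pre-immune IP against input, FOXM1 (0.03) ran from -0.17 to 0.39, below 0 without pre-immune replicate 1, 2 or 3. RRM2 (-0.07) gave 0.046 with edgeR, 0.095 with DESeq2, 0.027 with edgeR and the replicate block, and from -0.22 to 0.056 with a library left out. Against the pre-immune IP, MCM3, KIF20A, RRM1 (-0.15, up to 0.045) and AURKB (-0.25, up to 0.016) changed sign in some alternative as well. In the pre-immune IP against input, so did ANLN, AURKA, KIF23 (-0.22, up to 0.019), KIF11 and CENPE. The cause was not tested. The pre-immune IP was the shallowest group, although its replicate 1 (4946149 reads) was deeper than input replicate 3 (4873428 reads). Its pairs of libraries differed by a chi-square per degree of freedom of 33.8 to 52.8, beyond counting error. Pairs of ADAR3 IP libraries, the deepest group, gave an overlapping 24.8 to 43.1, and input pairs gave 2.53 to 7.48. The part of depth in this was not tested.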
